A study of Mus musculus with 18 samples.

Results

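The miR-125 and miR-99/100 families were followed through 7 mature microRNAs, taken by name from the 1251 entries of the deposited mouse microRNA table. They are mmu-miR-125a-5p and mmu-miR-125b-5p, the opposite arms mmu-miR-125b-1-3p and mmu-miR-125b-2-3p, and mmu-miR-99a-5p, mmu-miR-99b-5p and mmu-miR-100-5p, written from here on without the species prefix. A microRNA is cut from a hairpin precursor into a duplex, and one arm, or sometimes both, is loaded into Argonaute, where the bases after the first, called the seed, pair with target mRNAs. Members of a family share the seed and so share many predicted targets. The miR-125 genes are the mammalian relatives of lin-4, the first microRNA described in worms, and lie in clusters with miR-99/100 and let-7 genes that are conserved across animals. miR-125b is known for roles in epidermal differentiation and in skin stem cells, and miR-99/100 microRNAs are known for targeting components of insulin-like growth factor and mTOR signalling.

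All 7 members matched a RefSeq mature sequence of the GRCm38.p6 mouse assembly. The sequences are shown 5′ to 3′, with the seed, bases 2 to 8, in capitals, because the families are defined by it and because some members differ by so little that their reads are hard to tell apart.
miR-125a-5p: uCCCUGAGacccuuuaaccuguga
miR-125b-5p: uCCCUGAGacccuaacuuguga
miR-351-5p: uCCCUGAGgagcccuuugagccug
miR-99a-5p: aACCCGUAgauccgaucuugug
miR-99b-5p: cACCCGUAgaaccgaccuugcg
miR-100-5p: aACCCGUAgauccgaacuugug
miR-125b-1-3p: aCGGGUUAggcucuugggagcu
miR-125b-2-3p: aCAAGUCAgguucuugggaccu
miR-351-5p is not a member but carries the miR-125 seed, and its values are given with those of the relatives. miR-125a-5p, of 24 bases, and miR-125b-5p, of 22, share their first 13 and last 5 bases. Counted from the 5′ end, miR-99a-5p differs from miR-100-5p by U16A alone, and from miR-99b-5p by A1C, U11A, U16C and U21C. Both opposite arms of miR-125b have seeds of their own, and miR-125b-1-3p differs from miR-125b-2-3p by G3A, G4A and U7C within the seed and by C11U and G20C after it.

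The members come from 3 clusters, all on the plus strand of GRCm38. The chr9 cluster (chr9:41531425-41582002) holds Mir100, Mirlet7a-2 and Mir125b-1, the chr16 cluster (chr16:77598936-77646343) holds Mir99a, Mirlet7c-1 and Mir125b-2, and the chr17 cluster (chr17:17830188-17830879) holds Mir99b, Mirlet7e and Mir125a. The chr17 cluster spans only 692 bases, whereas the other two span 50578 and 47408 bases, with gaps of 45114 and 46522 bases before the miR-125b hairpin. In GENCODE M21, Mir100 and Mirlet7a-2 lie in introns of the long noncoding genes 3110039I08Rik, also named Mir100hg, and Gm49317, and Mir99a and Mirlet7c-1 lie in introns of Mir99ahg. Mir99b and Mirlet7e lie in introns of Spaca6, a gene for a sperm membrane protein. The 3 miR-125 hairpins each overlapped an exon of 1 annotated transcript of their strand, out of 26 over Mir125b-1, 5 over Mir125b-2 and 3 over Mir125a, and lay in introns of the others. Mature miR-125b-5p is the same molecule from Mir125b-1 and Mir125b-2, so its level cannot be divided between the chr9 and chr16 clusters, whereas miR-125b-1-3p and miR-125b-2-3p each come from 1 hairpin. Mir125b-1, the only source of miR-125b-1-3p, and Mir125a, which gives the most abundant member, are shown with both mature arms in capitals.
Mir125b-1 (chr9:41581926-41582002): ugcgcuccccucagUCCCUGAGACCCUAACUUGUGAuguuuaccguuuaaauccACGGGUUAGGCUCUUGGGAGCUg
Mir125a (chr17:17830812-17830879): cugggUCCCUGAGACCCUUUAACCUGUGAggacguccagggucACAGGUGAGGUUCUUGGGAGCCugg

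The samples came from 6 SKH-1E Hairless mice, an albino strain without a coat that develops skin tumours readily under ultraviolet light. The mice were female littermates, were irradiated with a solar simulator for months from young adulthood and were killed after a pause without irradiation. Each gave 1 library of chronically irradiated skin without a lesion (CHR), 1 of papilloma (PAP), the benign precursor lesion, and 1 of cutaneous squamous cell carcinoma (cuSCC), so that there were 6 libraries of each type and 18 in all. All 3 types had received the same irradiation, no unexposed skin was among the 18 libraries, and CHR is therefore damaged skin rather than normal skin. Lesions were judged by histology to be mostly tumour cells, but every library is bulk tissue, in which fewer cells of a type and less microRNA per cell cannot be told apart.

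A level is the log2 of a microRNA's share of the usable reads in ppm, with a lowest value of 3.32, or 10 ppm, that stands for not detected. Read depth per library is not in the table, and the number of microRNAs detected stands in for it, at 200 to 328 (CHR), 163 to 281 (PAP) and 236 to 365 (cuSCC). The libraries were brought to 1 common distribution, so a level states the place of a microRNA among the others of its library rather than an absolute amount. Tests took in the 293 microRNAs that at least 6 libraries detected, all 7 members among them, and 6 members were detected in all 18 libraries.

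3 of the 5p arms ranked among the most abundant microRNAs of irradiated skin. miR-125a-5p lay at 16.88 ± 0.44 log2 ppm in CHR (mean ± SD, n = 6) and was the 3rd to 7th most abundant entry of its library, followed by miR-99b-5p at 16.00 ± 0.40 and miR-125b-5p at 14.54 ± 0.52. miR-99a-5p, at 11.16 ± 0.50, and miR-100-5p, at 10.57 ± 0.57, were far lower, at the 48th to 73rd and the 57th to 85th place, although they share a seed with miR-99b-5p. The opposite arms stood lowest, miR-125b-1-3p at 7.93 ± 0.66 and miR-125b-2-3p at 7.36 ± 0.70. This order held in 5 of the 6 CHR libraries, and in mouse 10 only the opposite arms changed places. Neighbours were not all set apart by more than their spread across libraries, since the ranges of miR-125a-5p and miR-99b-5p met at 16.59, the lowest miR-99b-5p (15.44) lay under the highest miR-125b-5p (15.56), and the ranges of miR-99a-5p and miR-100-5p and of both opposite arms overlapped. Within a library the first pair was nevertheless ordered the same way in all CHR, with miR-125a-5p 0.44 to 1.15 above miR-99b-5p. Levels of different microRNAs derive from reads, and how evenly each was captured in library preparation was not tested.

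**Figure D1:**
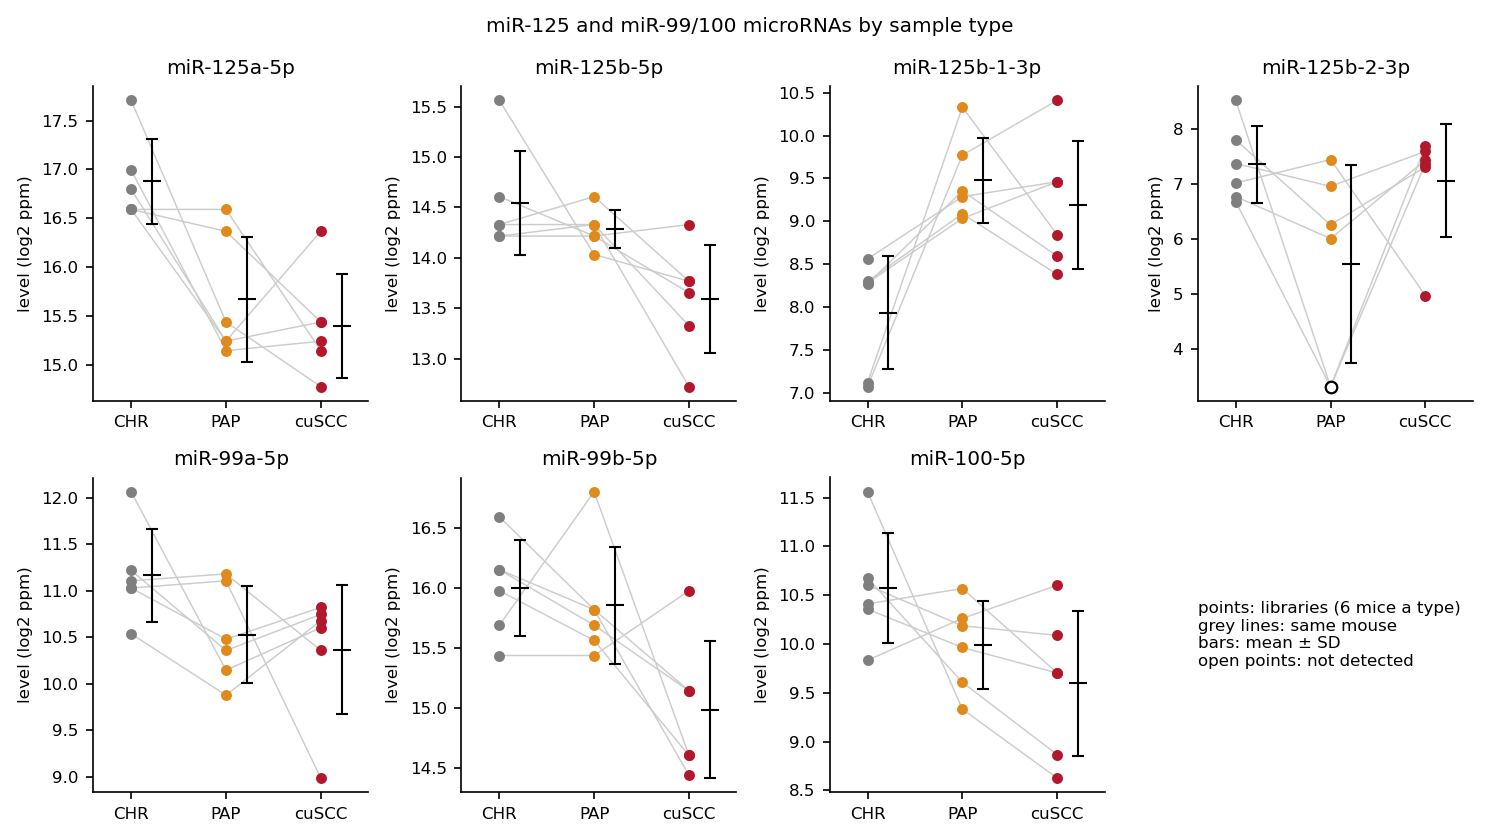
Level of each member in log2 ppm in the 18 libraries, with 1 point per library, grey lines joining the libraries of 1 mouse and bars giving mean ± SD (n = 6 per type); each panel has its own scale. miR-125a-5p is at 14.78 to 16.37 in cuSCC and at 16.59 to 17.71 in CHR, while miR-125b-1-3p is higher in all PAP than in all CHR; open points mark 2 PAP libraries at the lowest value for miR-125b-2-3p.

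The first comparison asked how carcinomas differed from the irradiated skin around them. In cuSCC, miR-125a-5p, miR-99b-5p and miR-125b-5p were lower than in CHR and miR-125b-1-3p was higher, and these 4 of 7 members passed an adjusted p of 0.05 in limma. Of all 293 tested microRNAs 42.3% passed, so a count of 4 in 7 does not set the families apart. The median difference of the members was -0.95 on the log2 scale, beside 0.11 over all tested microRNAs.

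miR-125a-5p ranged in CHR from 16.59 through a median of 16.69 to 17.71, and in cuSCC from 14.78 through 15.34 to 16.37. Every carcinoma lay under every CHR library, and it was lower in the carcinoma of each of the 6 mice. The difference was -1.48 (95% CI -2.15 to -0.80; limma adjusted p = 0.00234), or 2.79-fold lower. Its place in the library moved from 3rd to 7th in CHR to 8th to 19th in cuSCC. Among the tested microRNAs 20.5% did not overlap between cuSCC and CHR, and miR-125a-5p was the only member of which this was true.

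miR-99b-5p, processed from the same short cluster as miR-125a-5p, ran from 15.44 through 16.06 to 16.59 in CHR and from 14.44 through 14.88 to 15.98 in cuSCC. In 5 carcinomas it lay under every CHR library, and the carcinoma of mouse 9 was the exception. It fell by 1.01 (95% CI -1.69 to -0.33; limma adjusted p = 0.0211), or 2.02-fold. With the mouse as a block it no longer passed (adjusted p = 0.0563), which left 3 members called, and it was also lost without any 1 of mice 2, 3, 7, 8 or 10 (adjusted p 0.0513 to 0.0779).

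miR-125b-5p ran from 14.22 through 14.33 to 15.56 in CHR and from 12.72 through 13.71 to 14.33 in cuSCC. It was lower in the carcinoma of all 6 mice and under every CHR library in 5 of them. It fell by 0.95 (95% CI -1.65 to -0.24; limma adjusted p = 0.0325), or 1.93-fold. The call was lost without any 1 of mice 3, 7, 8 or 10 (adjusted p 0.0546 to 0.0889), and without the CHR library of mouse 10, which stood apart at 15.56 (adjusted p = 0.0646).

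miR-125b-1-3p, cut from the opposite side of one miR-125b hairpin, ran the other way. It spanned 7.07 through 8.27 to 8.56 in CHR and 8.38 through 9.15 to 10.41 in cuSCC, and was higher in the carcinoma of all 6 mice. In 5 carcinomas it exceeded every CHR library. It rose by 1.26 (95% CI 0.41 to 2.11; limma adjusted p = 0.0220), or 2.39-fold. This call was lost without any 1 of mice 2, 7 or 10 (adjusted p 0.0546 to 0.0641).

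The other members did not pass. miR-100-5p ran from 9.83 through 10.51 to 11.56 in CHR and from 8.63 through 9.70 to 10.60 in cuSCC, a difference of -0.98 just short of the threshold (95% CI -1.79 to -0.16; limma adjusted p = 0.0512). Mouse 2 was the only animal with a higher level in its carcinoma (10.60) than in its CHR (9.83), and without this mouse the difference was -1.32 and passed (adjusted p = 0.0233). With all mice kept it also passed when only microRNAs detected in at least 12 or in all 18 libraries were tested, with the 3 types in one fit, and after centring on microRNAs detected in all libraries (adjusted p 0.0281 to 0.0487). Without the CHR library of mouse 10 the difference was -0.78 (adjusted p = 0.115). miR-99a-5p ran from 10.54 through 11.07 to 12.06 in CHR and from 8.99 through 10.64 to 10.82 in cuSCC, with a difference of -0.80 (95% CI -1.57 to -0.03; limma adjusted p = 0.0841). It passed when only microRNAs detected in all 18 libraries were tested (limma adjusted p = 0.0495) and by exact permutation test (adjusted p = 0.0324). Without the CHR library of mouse 10 its difference was -0.62 (limma adjusted p = 0.179). The ranges of miR-100-5p and of miR-99a-5p overlapped between CHR and cuSCC. miR-99a-5p and miR-100-5p differ by a single base, and how the alignment assigned reads that fit both is not given in the sources used here. miR-125b-2-3p differed by -0.30 (95% CI -1.31 to 0.71; limma adjusted p = 0.614), with overlapping ranges.

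By the thresholds of the study, an unadjusted p under 0.05 together with a change of 1.5-fold, 6 members differed between cuSCC and CHR, all except miR-125b-2-3p, beside 51.5% of the tested microRNAs. With the mouse as a block 4 did, beside 147 of the 293 tested, and miR-99a-5p and miR-100-5p were lost. The count was also 4 without mouse 9, mouse 10 or the CHR library of mouse 10.

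Papillomas were then compared with the same CHR libraries. In PAP, miR-125a-5p was lower and miR-125b-1-3p was higher, and no other member passed limma with adjustment, a count of 2 in 7 beside 32.4% of all tested microRNAs. By the thresholds of the study 3 members differed, with miR-125b-2-3p added, beside 42% of all tested. After centring on microRNAs detected in all libraries 5 did, with miR-99a-5p and miR-100-5p added, beside 128 of the 293 tested. The median difference of the members was -0.59, and that of all tested microRNAs was -0.23.

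miR-125b-1-3p ran from 9.03 through 9.32 to 10.33 in PAP, above every CHR library in all 6 papillomas. It rose by 1.54 (95% CI 0.80 to 2.29; limma adjusted p = 0.00493), or 2.92-fold. It was the only member without overlap between PAP and CHR, as were 16% of the tested microRNAs. The call was kept without each mouse in turn, with differences from 1.21 to 1.71.

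miR-125a-5p ran from 15.14 through 15.34 to 16.59 in PAP and lay under every CHR library in 5 papillomas. The papilloma of mouse 8, at 16.59, equalled the CHR library of the same mouse. It fell by 1.21 (95% CI -1.92 to -0.49; limma adjusted p = 0.0166), or 2.31-fold. Without mouse 3 or mouse 7 it no longer passed (adjusted p = 0.0608 and 0.0613), nor without the papillomas of mice 7 and 10, where the fewest microRNAs were detected (-1.02, adjusted p = 0.0655).

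miR-99b-5p and miR-125b-5p, which were called in cuSCC, showed small differences in PAP. miR-99b-5p ran from 15.44 through 15.75 to 16.80 in PAP and differed from CHR by -0.15 (95% CI -0.77 to 0.48, limma adjusted p = 0.723). The difference turned to 0.05 when libraries were centred on microRNAs outside the members and the relatives and cell type markers named below. miR-125b-5p ran from 14.03 through 14.27 to 14.61 in PAP, within the CHR range in 5 of 6 papillomas, and differed by -0.25 (95% CI -0.83 to 0.32; limma adjusted p = 0.480). In PAP miR-99a-5p ran from 9.88 through 10.42 to 11.18 and miR-100-5p from 9.33 through 10.08 to 10.57, both overlapping CHR. miR-99a-5p differed by -0.64 (95% CI -1.32 to 0.04) and miR-100-5p by -0.59 (95% CI -1.27 to 0.10), with limma adjusted p of 0.143 and 0.188.

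miR-125b-2-3p had the largest mean difference of the members in PAP, -1.81 (95% CI -3.37 to -0.24; limma adjusted p = 0.0757), and it rested on 2 libraries. It was not detected in the papillomas of mice 7 and 10, whose lowest detected values for any microRNA were 6.72 and 6.83, so a level near the CHR median of 7.20 could only just have been seen there. The other 4 papillomas held 6.01 to 7.45, beside 6.68 to 8.52 in CHR. Without those 2 libraries the difference was -0.69 (adjusted p = 0.279).

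Between cuSCC and PAP 0 of 7 members passed limma with adjustment, beside 11.6% of all tested microRNAs. By exact permutation tests with adjustment 0 of all 293 passed, so that count says nothing of the members. The 2 members with an unadjusted p under 0.05, both past 1.5-fold, were miR-125b-5p (-0.69, 95% CI -1.30 to -0.09; adjusted p = 0.132) and miR-99b-5p (-0.87, 95% CI -1.58 to -0.15; adjusted p = 0.115), lower in cuSCC, beside 28.3% of all tested. With the mouse as a block neither kept an unadjusted p under 0.05, although 82 of the 293 tested met both thresholds. The count was also 0 without mouse 8, and 1 without mouse 3, 7 or 10 or after centring on microRNAs detected in all libraries. miR-125b-5p and miR-99b-5p each lay under every papilloma in 5 of 6 carcinomas. miR-125a-5p differed by -0.27 (95% CI -1.04 to 0.50) and miR-125b-1-3p by -0.29 (95% CI -1.10 to 0.53), with a limma adjusted p of 0.652 for both. No member was without overlap between cuSCC and PAP, where 1.37% of the tested microRNAs were. The 3 comparisons share their libraries in pairs and are not independent of each other.

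**Figure D2:**
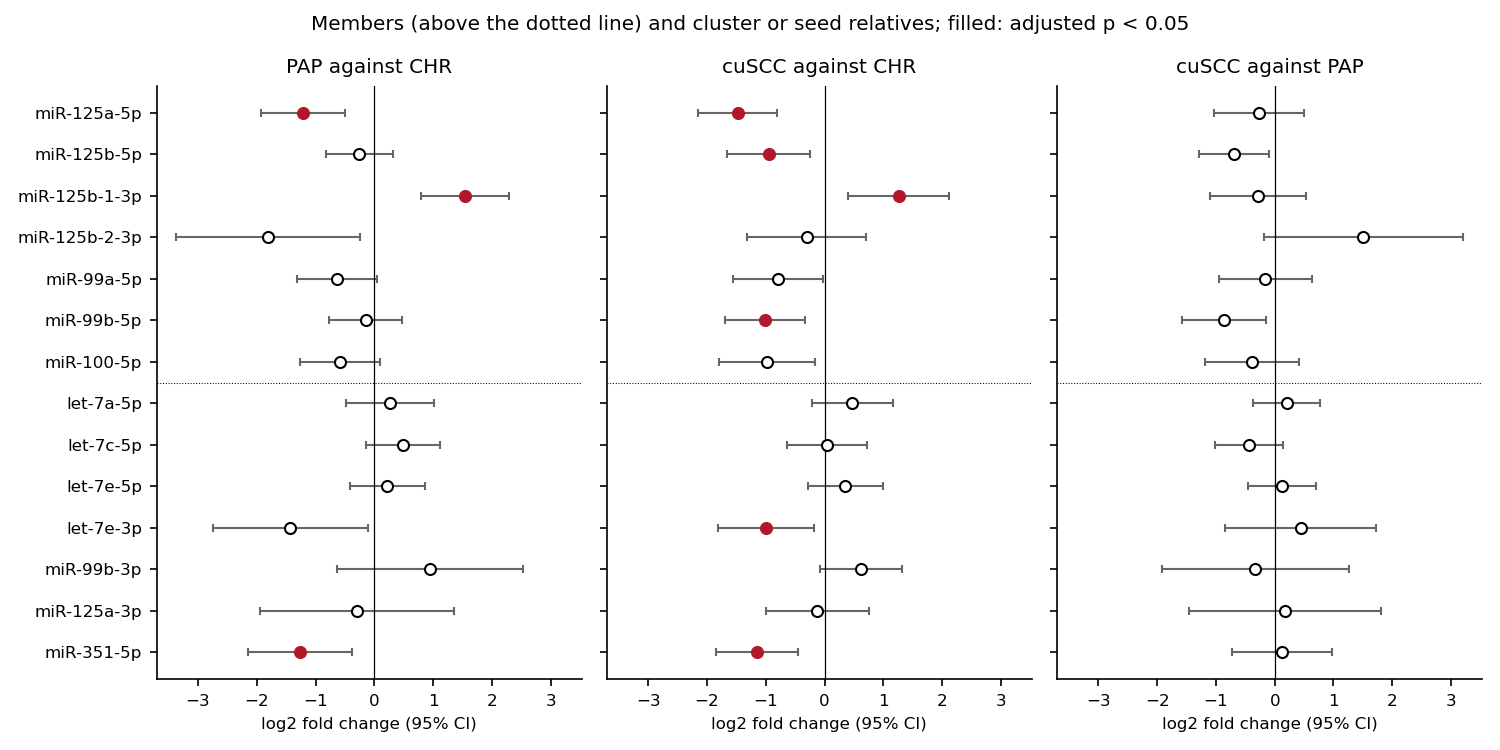
log2 fold change with 95% confidence interval from limma in the 3 comparisons, for the 7 members above the dotted line and 7 relatives below it; filled points have an adjusted p under 0.05. Among the members miR-125b-1-3p alone lies to the right of 0 against CHR (1.54 in PAP and 1.26 in cuSCC), and none of the let-7 5p arms is filled.

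The relatives of the members, 11 microRNAs that share a hairpin, a cluster or the miR-125 seed, did not move as 1 group. A total of 7 could be tested, of which 1 passed limma in PAP against CHR, 2 in cuSCC against CHR and none in cuSCC against PAP, beside the percentages of all tested microRNAs given above. miR-351-5p, encoded on the X chromosome and sharing the seed of miR-125a-5p and miR-125b-5p, fell in both lesions. It ran between 12.19 and 13.65 in CHR, between 10.02 and 12.30 in PAP and between 10.68 and 12.002 in cuSCC, with differences of -1.26 (limma adjusted p = 0.0336) and -1.14 (limma adjusted p = 0.0132). let-7e-3p fell in cuSCC by 0.99 (limma adjusted p = 0.0494).

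The let-7 5p arms of the same clusters showed no call. let-7e-5p, which lies between Mir99b and Mir125a, differed from CHR by 0.22 in PAP and 0.35 in cuSCC (limma adjusted p = 0.594 and 0.346). let-7a-5p differed by 0.27 and 0.47 (limma adjusted p = 0.582 and 0.258), and let-7c-5p by 0.49 and 0.05 (limma adjusted p = 0.224 and 0.905). let-7a-5p and let-7c-5p are also made from loci outside these clusters, so their levels do not report on the clusters alone. miR-99b-3p and miR-125a-3p were detected in all CHR and cuSCC and did not pass in any comparison. let-7a-2-3p and miR-100-3p were at the lowest value in all libraries, and miR-99a-3p and let-7c-1-3p were detected in 1 and 2 libraries.

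The gap between arms of 1 hairpin was then measured within each library. This removes a shift that is equal for all microRNAs of a library, but not an effect that differs between high and low levels. The gap of miR-125b-5p over miR-125b-1-3p ran from 5.77 to 8.49 log2 units in CHR (mean 6.61 ± 1.03), from 3.89 to 5.32 in PAP (4.81 ± 0.60) and from 3.36 to 4.95 in cuSCC (4.40 ± 0.61). All lesions of both types lay under all CHR libraries. How often other pairs separate in this way was not computed. Among all 7503 pairs of microRNAs detected in every library, 50.3% in PAP and 53.2% in cuSCC differed from CHR at an unadjusted exact p under 0.05. The gap narrowed by 1.80 in PAP and by 2.21 in cuSCC (two-sided exact permutation test, adjusted p = 0.0390 for both, adjusted over 45 tests of 15 pairs in 3 comparisons). CHR mouse 10, at 8.49, was the widest, and without this mouse the differences were -1.31 and -1.62. The narrowest PAP gaps, 3.89 and 4.26, were in mice 7 and 10, the papillomas with the fewest microRNAs detected. In cuSCC mouse 10 had both the narrowest gap and the fewest detected, whereas the CHR library with the fewest, mouse 7, held 7.10. Without the papillomas of mice 7 and 10 the PAP difference was -1.43 (exact permutation test, adjusted p = 0.107). The remaining papillomas, at 4.98 to 5.32, still lay under every CHR library. With these fewer libraries the lowest adjusted p of any pair in PAP against CHR was 0.0857, so no pair was called. The part of detection in these gaps was not tested. Since miR-125b-5p is pooled from both hairpins, the gap compares 1 arm of Mir125b-1 with the sum of the matching arms.

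**Figure D3:**
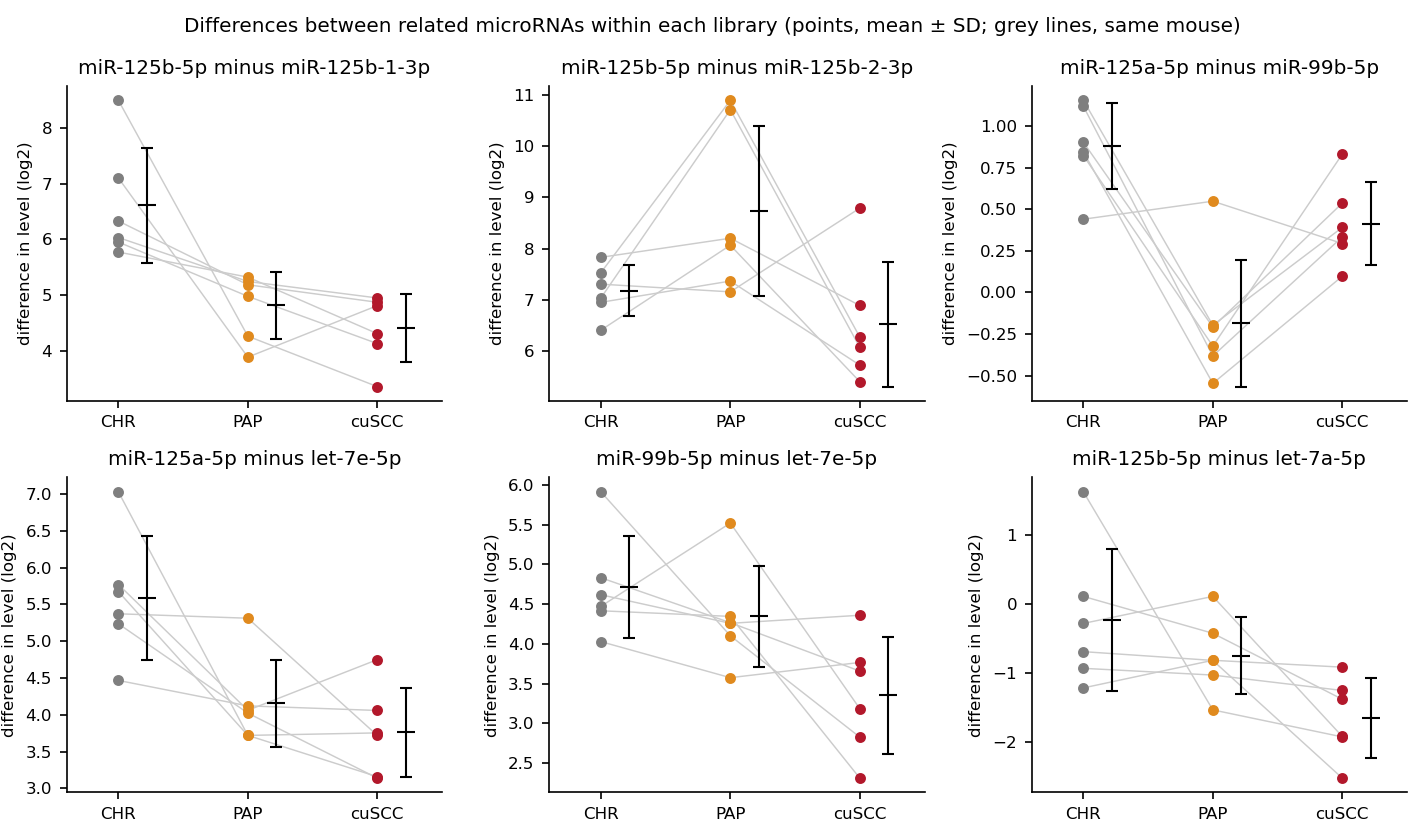
Difference in log2 level between 2 related microRNAs within each library, with 1 point per library, grey lines joining the libraries of 1 mouse and bars giving mean ± SD (n = 6 per type). The gap of miR-125b-5p over miR-125b-1-3p is 5.77 to 8.49 in CHR and no higher than 5.32 in any lesion, and miR-125a-5p falls under miR-99b-5p in 5 of 6 PAP.

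For the other opposite arm, miR-125b-2-3p, no change of the gap was called. The gap of miR-125b-5p over it ran between 6.41 and 7.83 in CHR, between 7.16 and 10.89 in PAP and between 5.41 and 8.79 in cuSCC, and neither difference from CHR passed (1.55, adjusted p = 0.104, and -0.65, adjusted p = 0.393, exact permutation tests). The highest PAP values belonged to mice 7 and 10, in which miR-125b-2-3p was not detected.

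The shift between arms was also taken for the 74 pairs of a 3p and a 5p arm that were both tested and could be matched by name. A 5p arm pooled from several hairpins, such as miR-125b-5p, entered once for each of its 3p arms. The 3p arm of miR-125b-1 gained on the pooled miR-125b-5p by 1.80 in PAP, the 4th largest gain, and by 2.21 in cuSCC, the 2nd largest. miR-99b stood 8th and 4th, with gains of 1.09 and 1.63, and miR-125a stood 10th and 8th, with gains of 0.91 and 1.36. A gain is relative to the 5p arm. miR-125a-3p itself did not rise (-0.30 in PAP and -0.12 in cuSCC), while miR-125a-5p fell by 1.21 and 1.48. miR-99b-3p differed by 0.95 and 0.62 and was not called. miR-125b-2 stood 64th and 17th. Undetected values entered these shifts at the lowest value. miR-125b-2-3p was not detected in the papillomas of mice 7 and 10. Without them the gap of miR-125b-5p over it changed in PAP by 0.52 rather than 1.55. Of the 6 papillomas, miR-99b-3p was detected in 5 and miR-125a-3p in 4. These ranks are descriptions, with no test.

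**Figure D4:**
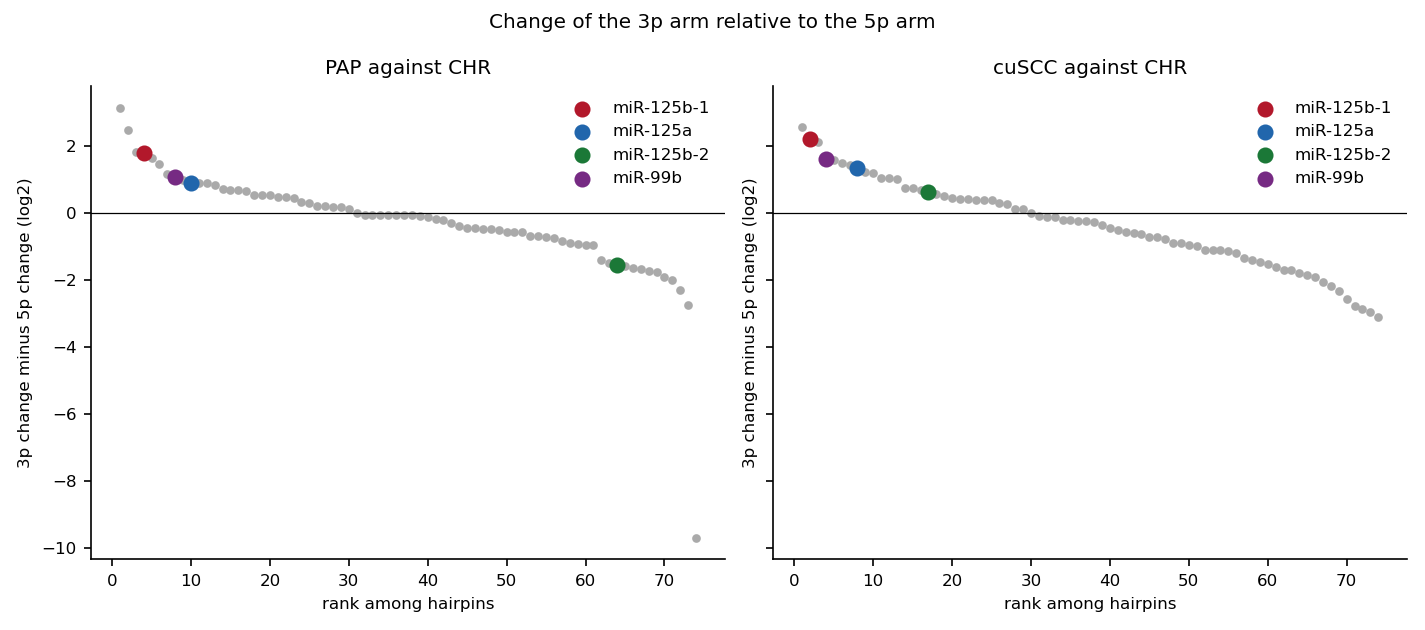
Change of the 3p arm minus change of the 5p arm (log2) for 74 pairs of arms matched by name. They are ranked from the largest gain of the 3p arm over the 5p arm, in PAP and in cuSCC against CHR. Coloured points are the hairpins of the families. miR-125b-1 lies 4th in PAP and 2nd in cuSCC, while miR-125b-2 lies 64th and 17th. The PAP place of miR-125b-2 includes 2 papillomas in which miR-125b-2-3p was not detected. The point near -9.69 in PAP is miR-133a, a skeletal muscle microRNA.

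Differences between neighbours of a cluster were measured in the same way. In the chr17 cluster miR-125a-5p lay 0.44 to 1.15 above miR-99b-5p in CHR and 0.10 to 0.83 above it in cuSCC, but the gap was negative in 5 papillomas, at -0.55 to -0.20, and 0.55 in the papilloma of mouse 2. The gap changed by -1.06 in PAP and by -0.47 in cuSCC (exact permutation tests, adjusted p = 0.0390 and 0.0758). Between cuSCC and PAP the change was 0.60 (adjusted p = 0.0731). miR-99b-5p was thus the more abundant of the pair in 5 of 6 papillomas and in no library of the other types.

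Relative to let-7e-5p, which lies between them, both were lower in carcinomas. miR-125a-5p exceeded let-7e-5p by 4.47 to 7.03 (CHR), 3.72 to 5.31 (PAP) and 3.14 to 4.75 (cuSCC), with changes of -1.43 in PAP (exact permutation test, adjusted p = 0.0417) and -1.83 in cuSCC (adjusted p = 0.0390). miR-99b-5p exceeded it by 4.03 to 5.91 in CHR and 2.31 to 4.36 in cuSCC, a change of -1.36 (exact permutation test, adjusted p = 0.0390), and by 3.57 to 5.52 in PAP, a change of -0.37 (adjusted p = 0.451).

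In the chr9 cluster miR-125b-5p changed against let-7a-5p by -1.42 in cuSCC and by -0.52 in PAP (exact permutation tests, adjusted p = 0.0417 and 0.433). The values ran from -1.21 to 1.63 in CHR and from -2.52 to -0.91 in cuSCC. Of the 3 pairs of this cluster, miR-125b-5p and miR-100-5p kept the closest ratio, with changes of 0.33 and 0.03 (adjusted p = 0.393 and 0.957). In the chr16 cluster miR-99a-5p changed against let-7c-5p by -1.13 and -0.84 (adjusted p = 0.104 and 0.226), and no pair was called. Nor was any of the 4 pairs that share a seed, among which miR-125a-5p lost 0.95 against miR-125b-5p in PAP (adjusted p = 0.0974).

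Such changes were at least as frequent among microRNAs at large. In all, 3 of 15 pairs were called in PAP, 4 in cuSCC and none between cuSCC and PAP. At an unadjusted exact p under 0.05 there were 6, 6 and 4 of 15, whereas among all 7503 pairs of microRNAs detected in every library 50.3%, 53.2% and 34.7% differed at that level. With the mouse as a block no pair was called (lowest adjusted p = 0.201), since with 6 mice the exact sign-flip test cannot give a p under 0.03125 and 45 tests were adjusted together. Without any 1 of mice 3, 7, 8, 9 or 10 the exact tests, then of 5 against 5 libraries, called no pair. With limma on the same differences 3, 4 and 1 pairs were called, the last being the gap of miR-125b-5p over miR-125b-2-3p between cuSCC and PAP (-2.20, limma adjusted p = 0.0201).

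Across the 18 libraries the closest correlations among members were not limited to a cluster or a family. miR-125a-5p followed miR-99b-5p of its own cluster (Pearson r = 0.77 over 18 libraries, and 0.83 within sample types), and miR-99a-5p followed miR-100-5p of its own family but another cluster (r = 0.69, and 0.56 within types). miR-125b-5p and miR-99b-5p, which share neither, had the same r of 0.69 (0.40 within types). miR-125b-1-3p ran against miR-125a-5p (r = -0.76, and -0.48 within types), while with its own opposite arm miR-125b-5p it had r = -0.30 (0.02 within types). All points share the same libraries and the same normalization, and near-identical sequences can share reads, so these are descriptions only.

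The microRNAs most like each member among the 122 others detected in every library, other members included, were found by the same correlation. miR-125b-1-3p was most like miR-210-3p, the microRNA best known for induction under low oxygen (r = 0.88, and 0.76 within types), and miR-205-3p (r = 0.82, and 0.58 within types), the minor arm of an abundant epithelial microRNA. miR-125a-5p was most like miR-222-3p (r = 0.79) and miR-145a-5p (r = 0.78), the latter a marker of smooth muscle and fibroblasts. miR-99b-5p was most like miR-320-3p (r = 0.82) and miR-328-3p (r = 0.77), and miR-125b-5p was most like miR-664-3p (r = 0.79) and miR-484 (r = 0.77). Within types these 6 correlations ran from 0.46 to 0.66. miR-99a-5p and miR-100-5p were most like each other, and next miR-99a-5p was most like miR-664-3p (r = 0.59) and miR-100-5p was most like miR-1843b-3p (r = 0.64).

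MicroRNAs that mark other cell types also differed between the sample types. Of 7 epithelial microRNAs, which include miR-205-5p and the miR-200 family, 4 rose in PAP and 3 in cuSCC against CHR. Their summed level (log2 of the summed ppm) ran from 17.50 to 18.51 (CHR), 17.77 to 18.55 (PAP) and 17.50 to 18.54 (cuSCC). This sum was set mainly by miR-205-5p (means 17.87, 18.22 and 18.08 in CHR, PAP and cuSCC), which was not called. All 3 tested skeletal muscle microRNAs fell in PAP and 1 in cuSCC, with sums of 15.44 to 15.98 (CHR), 5.32 to 12.45 (PAP) and 6.04 to 14.24 (cuSCC). miR-133b-3p and miR-206-3p were at the lowest value in all PAP. miR-1a-3p, also on the skeletal muscle list, was at the lowest value in all CHR and PAP and was detected in 1 carcinoma. Of 7 fibroblast and smooth muscle microRNAs 3 fell in PAP and 1 in cuSCC, and 3 were higher in cuSCC than in PAP, with sums of 14.30 to 15.06 (CHR), 11.03 to 14.04 (PAP) and 12.53 to 15.51 (cuSCC). Both endothelial microRNAs rose in cuSCC, with sums of 7.84 to 9.35 (CHR), 7.61 to 9.004 (PAP) and 9.26 to 11.17 (cuSCC). Of 3 tested leukocyte microRNAs 1 fell in PAP, and 1 rose and 1 fell in cuSCC, with sums of 12.14 to 13.11 (CHR), 9.03 to 11.19 (PAP) and 10.80 to 12.27 (cuSCC), and miR-155-5p was at the lowest value throughout. Of 2 tested erythroid microRNAs 1 rose in PAP, and 1 rose and 1 fell in cuSCC, with sums of 16.69 to 17.84 (CHR), 16.70 to 18.24 (PAP) and 14.87 to 17.87 (cuSCC), and miR-144-3p was at the lowest value throughout. Against PAP, cuSCC was also higher in all 3 tested skeletal muscle, both endothelial and 1 leukocyte microRNA. It was lower in 1 epithelial and 1 erythroid microRNA. Of all 293 tested microRNAs, 41 rose and 54 fell in PAP against CHR, and 59 rose and 65 fell in cuSCC against CHR. Between cuSCC and PAP 27 were higher and 7 lower in cuSCC. The part of these marker shifts in the differences of the members was not tested.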

How the data were processed

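The authors trimmed adapters, discarded short or homopolymer reads, aligned what remained against miRBase by BLAST, and scaled each microRNA to ppm of usable reads. The deposited values are log2 ppm, with a lowest value of 10 ppm, quantile normalized across libraries as judged from the table itself. The versions of BLAST and miRBase are not given in the sources used here. Quantile normalization gives libraries the same set of values, so neighbouring levels in different libraries can be identical, and read depth, and with it counting error, is unknown.

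The 293 microRNAs detected in at least 6 libraries were compared between sample types with limma 3.58.1 in R 4.3.3, without a block, with Benjamini-Hochberg adjustment over all 293 and a threshold of 0.05. The study's own thresholds were 1.5-fold and an unadjusted p under 0.05. Differences between 2 microRNAs within a library were compared by two-sided exact permutation tests (Python 3.11.15), adjusted over 45 tests. The smallest p for 6 against 6 is 0.00216. Alternatives were other detection filters, 1 fit over all 3 types, the mouse as a block, 2 centrings, 2 treatments of undetected values, exact tests and leaving out each mouse. The mouse number in the labels pairs the samples because 3 tissues come from 1 animal, although deviations of paired samples from their type means correlated only weakly (mean r 0.03, -0.07 and 0.06 for PAP against CHR, cuSCC against CHR and cuSCC against PAP). The limma code was tested on simulated data. Named were all 7 members, 11 relatives by cluster, hairpin or seed and, for each member detected in all 18 libraries, the 2 most correlated microRNAs. Members, lists and pairs were chosen with earlier results of these data known. Sequences and positions are from RefSeq (GRCm38.p6) and GENCODE M21 (GRCm38), and the labels name mm10, the same assembly.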

Additional observations from a re-analysis of the deposited data

Results flagged for a closer look

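Of the 21 sets of 6 libraries (7 members in 3 sample types), 5 held 1 library far from the others, where chance alone gives about 1 in 20. The CHR library of mouse 10 stood above the other CHR libraries for miR-125a-5p, at 17.71 beside 16.59 to 16.99, and for miR-125b-5p, at 15.56 beside 14.22 to 14.61. Without being flagged, it was also the highest CHR library for miR-125b-2-3p (8.52), miR-99a-5p (12.06), miR-99b-5p (16.59) and miR-100-5p (11.56). For miR-125b-1-3p it was the lowest (7.07). This library thus widened the mean difference from CHR of all 7 members in both lesions. The carcinoma of mouse 9 stood below the other carcinomas for miR-125b-2-3p, at 4.98 beside 7.31 to 7.69, and for miR-99a-5p, at 8.99 beside 10.36 to 10.82. The papilloma of mouse 8 stood above the others for miR-99b-5p, at 16.80 beside 15.44 to 15.82. Without the CHR library of mouse 10 miR-125a-5p still differed from CHR in both lesions (-1.04 in PAP and -1.31 in cuSCC, limma adjusted p = 0.0309 and 0.00517). So did miR-125b-1-3p (1.37 in PAP and 1.09 in cuSCC, limma adjusted p = 0.0108 and 0.0449). In cuSCC miR-99b-5p also passed (-0.89, limma adjusted p = 0.0428), whereas miR-125b-5p did not (-0.75, limma adjusted p = 0.0646). The source of these deviations was not tested.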

How the results depend on the processing

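The number of members called ranged from 1 to 3 in PAP against CHR and from 1 to 6 in cuSCC against CHR, and was 0 in cuSCC against PAP under every alternative run. Leaving out 1 mouse gave 1 to 2, 1 to 4 and 0 members, with 1 in PAP against CHR without mouse 3 or 7 (beside 55 and 59 of all 293 tested), and in cuSCC against CHR 2 without mouse 3 or 8 (beside 77 and 99) and 1 without mouse 7 or 10 (beside 99 and 129). The cause of these losses, beside the smaller number of samples, was not tested. Without the papillomas of mice 7 and 10, an alternative chosen after seeing the data, 1 member was called in PAP against CHR, beside 71 of 293. For cuSCC against CHR, 6 members were called when only microRNAs detected in all 18 libraries were tested, which adjusts over fewer tests (beside 71 of 123). Exact permutation tests called 5, with miR-99a-5p added, and the mouse as a replicate block left 3 (beside 110 of 293 in each). The block lost miR-99b-5p and changed no other member's adjusted call. The counts by the thresholds of the study were recomputed under the limma alternatives after seeing the data. In PAP against CHR the count was 5 after centring on microRNAs detected in all libraries rather than 3, and 2 to 4 leaving out 1 mouse. In cuSCC against CHR it was 4 to 6 throughout. In cuSCC against PAP it was 0 with the replicate block, 1 after that centring rather than 2, and 0 to 2 leaving out 1 mouse.

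For pairs, leaving out 1 mouse gave 0 to 3 called pairs in PAP against CHR, 0 to 5 in cuSCC against CHR and 0 to 1 in cuSCC against PAP; with 5 against 5 libraries the smallest exact p is 0.00794. The sign-flip test over mice (replicate block) gave 0 and 0 in the comparisons with CHR. Without the papillomas of mice 7 and 10 the count was 0 in PAP against CHR, and without the CHR library of mouse 10 it was 1 in each comparison with CHR. Between cuSCC and PAP it was 1 by limma and 1 with a lowest value of 100 ppm.

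Of the member differences under alternatives, those not called changed sign 4 times in 257, and those called never did. miR-99b-5p changed sign in PAP against CHR, to 0.0498 after centring on microRNAs outside the members, relatives and cell type markers. miR-125b-1-3p did so in cuSCC against PAP, to 0.00145 without the papillomas of mice 7 and 10. Leaving out 1 mouse turned miR-125b-2-3p in cuSCC against CHR (-0.497 to 0.0507, positive without mouse 9). It also turned miR-99a-5p in cuSCC against PAP (-0.352 to 0.232, positive without mouse 9). Centring on microRNAs outside the members, relatives and cell type markers moved the median of all tested microRNAs. It went from -0.228 to -0.0333 in PAP against CHR and from 0.207 to -0.00247 in cuSCC against PAP. Centring on microRNAs detected in all libraries moved it to -0.368 and 0.307. Leaving out 1 mouse also turned the sign of pairs that were not called. In PAP against CHR these were miR-100-5p minus miR-99a-5p (-0.155 to 0.293) and miR-125b-5p minus let-7a-5p (-0.706 to 0.00652). In cuSCC against CHR they were miR-99b-5p minus miR-100-5p (-0.514 to 0.311), miR-125b-5p minus miR-99a-5p (-0.477 to 0.0231), miR-125b-5p minus miR-100-5p (-0.218 to 0.241) and miR-100-5p minus miR-99a-5p (-0.338 to 0.0823).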
